A study of Mus musculus with 8 samples.

Results

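Open chromatin was described around the genes of 4 cerebellins, Cbln1, Cbln2, Cbln3 and Cbln4, and of the delta glutamate receptor gene Grid1. Every ATAC-seq peak that overlapped 1 of these 5 gene bodies, or the 20 kb on either side, was taken. Peaks with fewer than 300 bp between them were joined across genotypes into 1 region, which gave 95 regions of 190582 in the genome. They held 91 of 152984 WT peaks, 62 of 106974 het peaks and 91 of 174407 mutant peaks. The study examined the chromatin remodeller Chd7 in mouse cerebellar granule neuron progenitors, the dividing cells that give rise to granule neurons, with ATAC-seq, a method that reads accessible DNA from where the Tn5 transposase can cut. The labels give the strain of all animals as C56Bl6/J, where the methods of the study name C57BL/6N, and the age as postnatal day 7 (P7). Per the study, WT animals carried floxed Chd7 alleles without Cre (Chd7 f/f), het animals lost 1 allele (Atoh1-Cre::Chd7 f/+) and mutant animals lost both (Atoh1-Cre::Chd7 f/f). Atoh1-Cre acts in the granule lineage, and the study names low recombination by this line as the probable reason for Chd7 protein left in the posterior lobe. Loss of Chd7 was not checked here because peak lists hold no expression. The 3 WT, 2 het and 3 mutant libraries were each pooled by genotype before peaks were called, and the study describes the WT and mutant replicates as technical, so replicate error is unknown and the genotypes were compared without a test.

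Cerebellins are secreted proteins of the C1q family. Released from axons of granule neurons, Cbln1 binds neurexins on the presynaptic side and delta glutamate receptors on the Purkinje cell side, and so bridges and maintains the synapse between parallel fibre and Purkinje cell. Cbln3 is secreted together with Cbln1, Cbln2 acts at other synapses of the brain, and Cbln4 also binds the netrin receptors Dcc and Neo1. Grid1 encodes a delta receptor that is found more widely in the brain and does not carry classical glutamate currents.

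The lists rested on 50394313 WT, 30923002 het and 51030229 mutant tags. A peak's pileup is the number of extended tags that overlap its summit, and the lowest pileup listed was 7 in WT, 8 in het and 7 in mutant. Heights were compared between WT and mutant only, as pileup per 1000000 tags. Het tags had been extended and shifted differently, so that het pileups are printed but not compared, and the position of a peak within its own list (its rank by q-value, 100 being the strongest) was used instead. A start-site peak was present in WT at 7 of 8 granule progenitor marker genes, at 3 of 4 Purkinje cell, 2 of 3 interneuron, 3 of 3 astroglial, 1 of 3 oligodendrocyte, 1 of 3 microglial and 3 of 3 endothelial marker genes. The mutant counts were the same except for 8 of 8 progenitor and 0 of 3 microglial genes, and the het counts were those of WT except for 1 of 3 interneuron and 0 of 3 microglial genes. Whether other cell types had a part in the peaks described here was not tested, and a change in cell makeup cannot be told apart from a change within cells.

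The bases that carry the main observations are shown here, with 2 E-box forms, a kind of site that bHLH factors bind, in capitals: CAGCTG, and CATCTG, which on the opposite strand reads CAGATG. All coordinates are mm10. Of the 5 genes, Cbln3 and Cbln4 matched the promoter table from RefSeq (GRCm38.p6). The stretch of 250 bases before the Cbln4 start site, chr2:172043467-172043716 on the minus strand, is shown because no list had a peak on it. For contrast, the 114 bases before the Cbln3 start site, chr14:55884393-55884506 on the minus strand, lay under a peak in every list. The 201 bases around the summit of the tallest Cbln4 region, chr2:172054117-172054317, and of the Cbln1 region away from the start site, chr8:87475631-87475831, are on the plus strand. The last 3, also 201 bases on the plus strand, are the summits of the Grid1 regions with the largest height differences: chr14:35254554-35254754, lower in mutant, chr14:34877520-34877720, higher in mutant, and chr14:35502440-35502640, around a mutant peak that no WT peak overlapped.
Cbln4 promoter: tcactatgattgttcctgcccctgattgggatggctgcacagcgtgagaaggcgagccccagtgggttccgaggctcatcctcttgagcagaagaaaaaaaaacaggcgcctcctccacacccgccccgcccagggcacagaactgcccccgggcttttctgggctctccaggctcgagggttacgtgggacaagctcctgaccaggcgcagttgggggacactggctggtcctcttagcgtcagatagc
Cbln3 promoter: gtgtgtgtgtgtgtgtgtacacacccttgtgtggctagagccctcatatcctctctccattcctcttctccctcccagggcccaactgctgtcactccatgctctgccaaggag
Cbln4 distal region: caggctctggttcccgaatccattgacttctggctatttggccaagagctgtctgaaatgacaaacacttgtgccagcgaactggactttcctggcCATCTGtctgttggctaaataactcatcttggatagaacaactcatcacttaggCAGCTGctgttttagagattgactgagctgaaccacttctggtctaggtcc
Cbln1 distal region: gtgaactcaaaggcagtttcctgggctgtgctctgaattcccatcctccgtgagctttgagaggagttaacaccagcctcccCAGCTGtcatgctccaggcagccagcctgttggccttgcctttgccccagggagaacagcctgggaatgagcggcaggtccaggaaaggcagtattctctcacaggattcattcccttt
Grid1 intron 5 region: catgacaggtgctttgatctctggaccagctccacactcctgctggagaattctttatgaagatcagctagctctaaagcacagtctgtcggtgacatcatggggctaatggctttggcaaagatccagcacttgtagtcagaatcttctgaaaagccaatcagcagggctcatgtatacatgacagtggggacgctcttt
Grid1 intron 2 region: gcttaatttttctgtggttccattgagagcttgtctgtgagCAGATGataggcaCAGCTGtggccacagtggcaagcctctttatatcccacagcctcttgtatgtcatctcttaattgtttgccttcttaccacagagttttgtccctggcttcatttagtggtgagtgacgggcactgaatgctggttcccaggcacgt
Grid1 intron 12 region: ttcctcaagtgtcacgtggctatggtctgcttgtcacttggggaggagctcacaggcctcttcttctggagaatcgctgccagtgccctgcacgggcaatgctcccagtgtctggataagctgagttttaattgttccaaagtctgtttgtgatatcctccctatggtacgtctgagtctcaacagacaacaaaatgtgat

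Most chromatin open at these genes in WT was also open in the mutant. Of 77 regions with a WT peak, 62 had a mutant peak as well, and 15 (19.5%, Wilson 95% interval 12.2 to 29.7) had none, beside 20.4% of all WT regions. Of 78 regions with a mutant peak, 16 (20.5%, 13.0 to 30.8) had no WT peak, beside 28.4% of all mutant regions. The share without a mutant peak was thus near the background, and that without a WT peak was below it with the background inside the interval. These intervals cover counting error only.

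Regions that had a peak in WT or mutant but not in both were low and narrow. The 15 without a mutant peak had WT pileups from 7 to 15 and a median width of 138 bp. None lay at a start site with peaks joined in this way, but the joined start-site region of Cbln4 held WT peaks that no mutant peak overlapped. The 16 without a WT peak had mutant pileups from 7 to 22 and a median width of 136.5 bp. The 62 shared regions had WT pileups from 9 to 63 (median 26) and mutant pileups from 12 to 72 (median 29.5), with a median width of 500.5 bp. Across the genome, the same classes had median widths of 128 bp, 129 bp and 444 bp.

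Among the 62 shared regions, 41 were higher and 21 lower in mutant, while 57.2% of all shared regions were higher. They had a median log2 ratio of 0.11 (order-statistic interval 0.02 to 0.21) beside 0.07 over all 111314 shared regions. A drop of 1.5-fold or more was found in 1 of the 62, beside 3.61% of all shared regions, and a gain of that size in 4, beside 7.48%. The counting interval of the ratio left out 1 in 3 of the 62, beside 1.32% of all shared regions. All of these regions belonged to Grid1, which supplied 47 of the 62. The height of a region is that of its tallest peak in each list, and the tallest WT and mutant peaks overlapped in 59 of the 62 (95.2%), beside 96.0% of all shared regions.

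**Figure D1:**
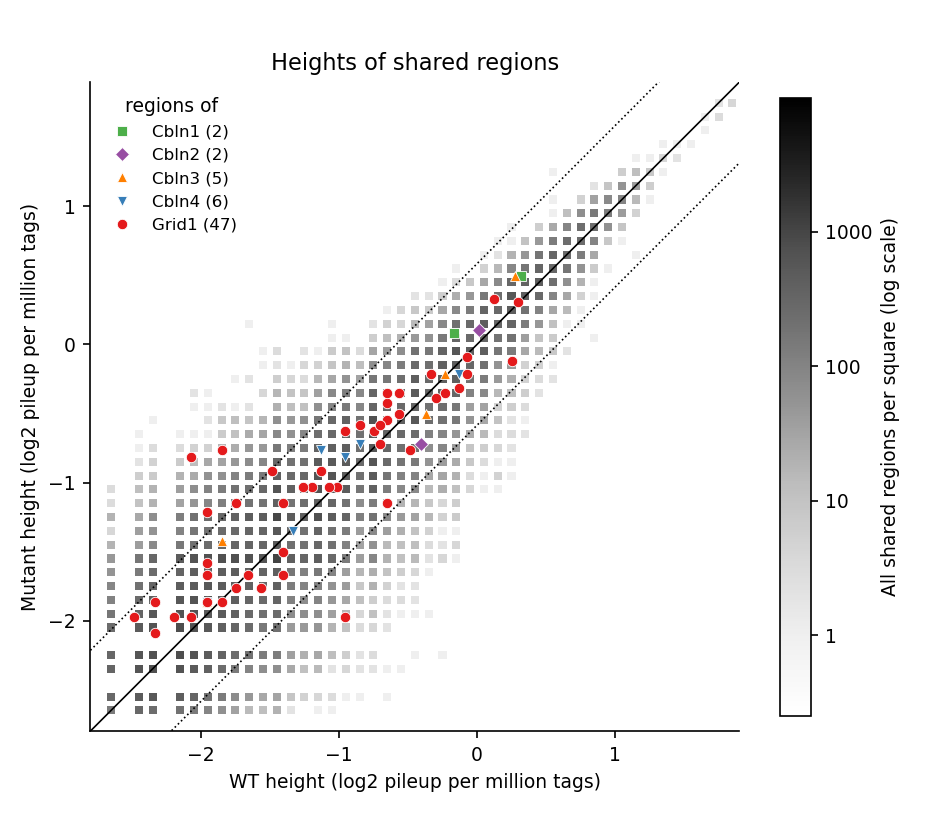
WT height against mutant height (both log2 pileup per 1000000 tags) of the 62 shared regions, colored by gene, over the number of all 111314 shared regions per square in grey; the solid line marks equal height and the dotted lines a fold of 1.5. The 15 cerebellin regions lie between the dotted lines, and 5 Grid1 regions lie outside, 4 above and 1 below.

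The het list held a peak in 53 of the 62 shared regions (85.5%), beside 78.2% of all. It held 3 of the 15 regions without a mutant peak, beside 11.1%, and 2 of the 16 without a WT peak, beside 13.1%. A further 2 regions, both of Grid1, had a het peak alone. In the 53 regions of all 3 lists, the het rank lay between the WT and mutant ranks in 10, beside 22.7% of all such regions, and below both in 39 (73.6%), beside 71.3%. Het ranks were lower in general, with a median of 58.7 over all such regions against 70.7 in WT and 74.2 in mutant.

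**Figure D2:**
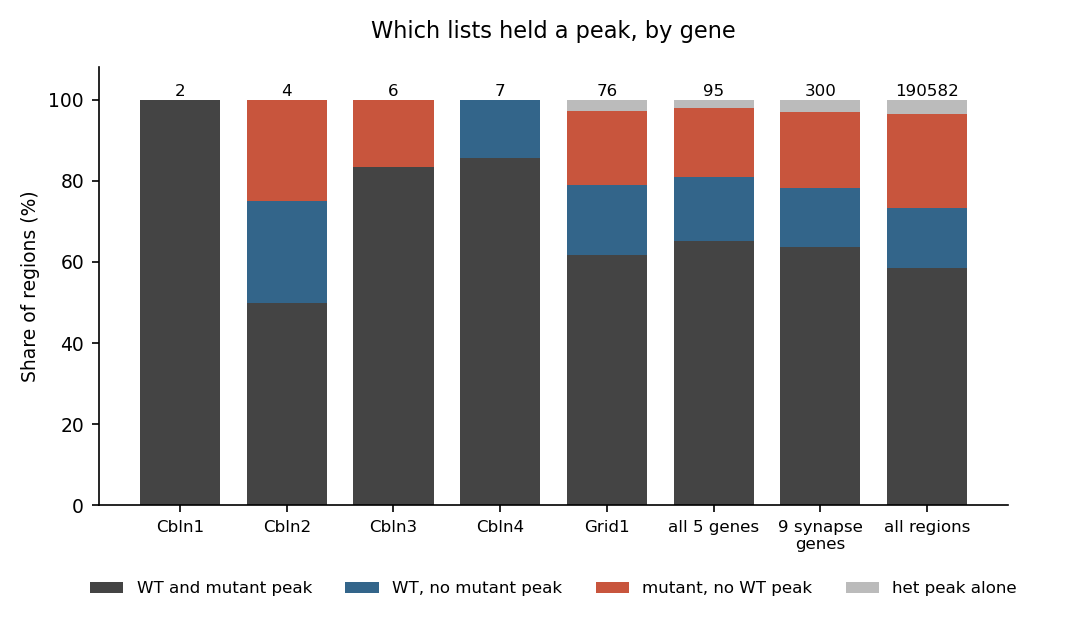
Share of each gene's regions (%) by the lists that held a peak, with the number of regions above each bar, for the 5 genes, their sum, 9 other synapse genes and the whole genome. Cbln1 has only shared regions, while Grid1 follows the genome in holding all 4 classes; the bars of Cbln1 to Cbln4 rest on 2 to 7 regions.

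The 4 ligand genes are short, from 4.21 kb (Cbln1) to 7.23 kb (Cbln4), and their windows held 19 regions, of which 15 were shared. Regions per 100 kb came to 4.52 for Cbln1, 8.48 for Cbln2, 13.2 for Cbln3 and 14.8 for Cbln4. The median protein-coding gene had 8.19, with quartiles of 4.54 and 11.8. Thus Cbln1, the cerebellin of the parallel fibre synapse, had the fewest regions for its window, just under the lower quartile, and Cbln3 and Cbln4 lay above the upper quartile. By the tallest peaks, no shared region of a cerebellin gene differed by 1.5-fold or more. With summed pileups the start-site region of Cbln4 did, at a log2 ratio of -1.02.

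Cbln1 (chr8:87468405-87472609, minus strand) had 2 regions, both present in every list. Region chr8:87472349-87473268 covered its start site, with the mutant summit 126 bp upstream. Its pileup was 63 in WT, 104 in het and 72 in mutant. Scaled by tags, mutant stood to WT at a ratio of 1.13 (counting interval 0.794 to 1.61), so that no difference was detectable at this depth. The start site of Gm2694, a long non-coding RNA gene on the other strand, lay within 77 bp of the same summit, and the peak cannot be assigned to either gene. Region chr8:87475594-87476067, 3.12 kb upstream in an intron of Gm2694, had pileups of 45, 62 and 54 in the same order. Its ratio was 1.19 (0.783 to 1.80), and the 201 bases at its summit held 1 CAGCTG. Both Cbln1 regions were thus slightly higher in mutant, each by less than counting error. The window is bare otherwise, and the next region outside lay 22.3 kb away with pileups of 11 in WT and 9 in mutant.

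Cbln2 (chr18:86711110-86718283, plus strand) had 4 regions, 2 of them at annotated start sites and shared by all lists. Region chr18:86710506-86711981 held 2 peaks in each list. The peak upstream of the start site had a pileup of 51 in WT, 59 in het and 55 in mutant, a ratio of 1.06 (0.714 to 1.59). The peak downstream of it had 40 in both WT and mutant. A further region, chr18:86712794-86713539, overlapped coding sequence close to an internal start site and had 38 in WT, 51 in het and 31 in mutant, a ratio of 0.806 (0.485 to 1.33). The ratios at the start sites therefore fell on either side of 1, within counting error. The remaining regions were faint. A region in WT and het, 12.6 kb downstream of the start site, had pileups of 8 and 10, and another in mutant alone, 18.1 kb upstream, had a pileup of 7, the lowest that the mutant list holds.

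Cbln3 (chr14:55878913-55884392, minus strand), whose product is secreted with Cbln1, shared its start-site region with the neighbouring gene Khnyn. In WT and mutant, region chr14:55884012-55885413 was made of separate peaks for each gene. The peak at the Cbln3 start site had its summit 27 bp upstream in WT and 29 bp upstream in mutant. Its pileup was 55 in WT and 49 in mutant, a ratio of 0.880 (0.586 to 1.32). The peak at the Khnyn start site had 61 and 72, a ratio of 1.17 (0.817 to 1.67), and because it is the taller it sets the height of the region. The het list had a single broad peak over both, with a pileup of 98 and its summit 36 bp from the Khnyn start site. The peak that can be placed on Cbln3 was thus lower in mutant and its neighbour higher, neither beyond counting error. The 114 bases printed for Cbln3 hold a run of gt repeats, neither CAGCTG nor CATCTG, and 0 CG pairs.

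The tallest mutant peak without a WT peak of all 5 genes was at Cbln3. Region chr14:55879757-55879859 in an untranslated part of an exon near its 3' end had a mutant pileup of 22 and no peak in WT or het. It spanned 103 bp, close to the 88 bp to which mutant tags had been extended. Of the 5 regions without a WT peak and with a mutant pileup of 15 or more, 3 were under 120 bp wide, and the other 2 of these 3 lay in Grid1. Among all such regions in the genome 28.8% were that narrow. Without the pileup limit, 6 of the 16 regions lacking a WT peak (37.5%) were that narrow, beside 43.4% in the genome. Whether tag length or alignment, which differ between the lists in ways given with the methods, had a part in these peaks was not tested. The other 4 Cbln3 regions lay in or at the neighbours Nynrin, Gm26751 and Sdr39u1, and had ratios from 0.912 to 1.34.

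Cbln4 (chr2:172036233-172043466, minus strand) was open inside the gene and far upstream. The 250 bp before its start site held no peak in any list, and the nearest peak ended 256 bp away, inside the gene. Each of the other 4 genes had a peak of every list on at least part of the matching 250 bp. At Cbln2 these peaks reached only the far edge, ending at 86710898 in WT, 86710932 in het and 86710873 in mutant, short of the start site at 86711110. The Cbln4 promoter as printed had a GC content of 60.8%, with 11 CG pairs and neither CAGCTG nor CATCTG. The region nearest to it, chr2:172042162-172043211, lay over an untranslated exon and had its tallest peak about 1.07 kb inside the gene in mutant and 1.09 kb in WT. Its pileup was 26 in WT, 31 in het and 29 in mutant, a ratio of 1.10 (0.626 to 1.95). WT had 3 peaks in this region, het 2 and mutant 1, and the additional WT peaks had pileups of 17 and 15. No mutant peak overlapped these, whose summits lay 642 bp and 422 bp inside the gene. With only overlapping peaks joined, 3 of 10 WT regions of Cbln4 had no mutant peak, in place of 1 of 7, beside 22.7% of all. With peaks at −log10 q of 5 or more, 0 of 4 WT regions had no mutant peak, beside 12.8% of all. Of the mutant regions, 1 of 5 then had no WT peak, beside 23.2%. With the pileups of a list summed over the start-site region, the log2 ratio turned from 0.14 to -1.02. That sum takes in the weak WT peaks.

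The tallest Cbln4 region lay upstream. Region chr2:172053846-172054485, 10.8 kb before the start site in intergenic DNA, had a pileup of 46 in WT, 57 in het and 44 in mutant, a ratio of 0.945 (0.610 to 1.46). Its summit held 1 CATCTG and 1 CAGCTG. A neighbour 9.39 kb before the start site had 23 in WT, 33 in het and 30 in mutant, a ratio of 1.29 (0.723 to 2.32). Regions in the introns, 2.41 kb and 3.90 kb inside the gene, had ratios of 1.09 and 0.988. A region 2.68 kb before the start site, near that of Gm14271, had 13 in WT and 14 in mutant, a ratio of 1.06 (0.464 to 2.46), and no het peak. The last region, past the end of the gene and 11.8 kb from its start site, had a WT pileup of 8 and no peak in the other lists. By the tallest peak of each list, no shared Cbln4 region thus differed between WT and mutant beyond counting error. The summed pileups at the start-site region were given no interval.

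**Figure D3:**
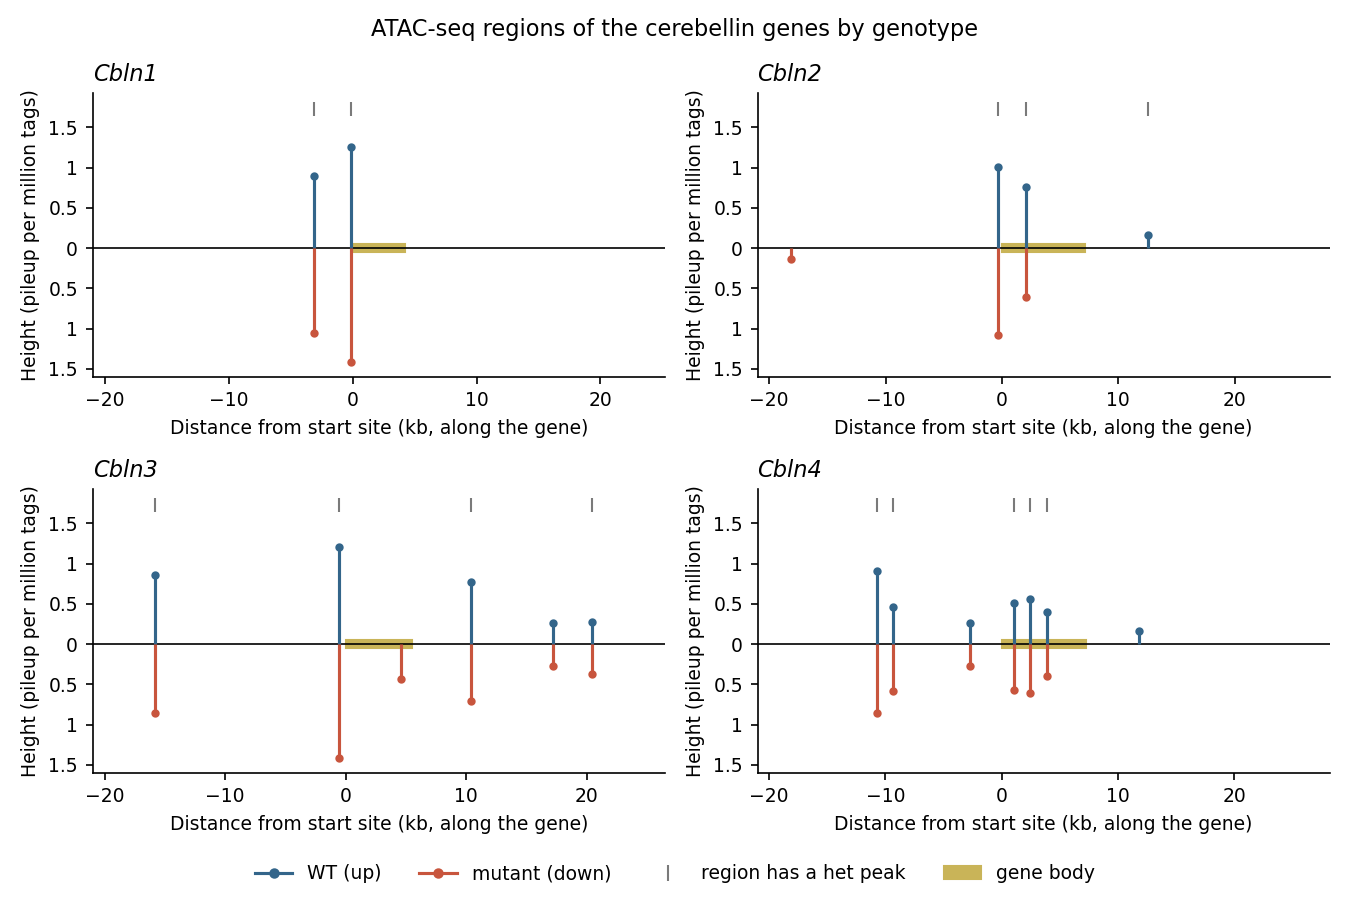
Heights of the regions (pileup per 1000000 tags, WT upward, mutant downward) against the distance of the summit from the start site (kb, along the gene) for the 4 cerebellin genes, with grey ticks for regions that have a het peak and a yellow bar for the gene body. Tall regions mirror each other between WT and mutant, and the Cbln4 start is bare. The regions without a partner are low, save a mutant region of Cbln3 with a pileup of 22.

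Grid1 (chr14:34820108-35583379, plus strand) is 763 kb long with 16 exons, and it carried 76 of the 95 regions. That made 9.46 regions per 100 kb, above the median gene and within the quartiles. Of its 76 regions, 47 were shared, 13 had a WT and no mutant peak (21.7%, 13.1 to 33.6), 14 had a mutant and no WT peak (23.0%, 14.2 to 34.9) and 2 had a het peak alone. Both shares held their background of 20.4% and 28.4% inside the interval. All but 2 of the 47 shared regions lay in introns.

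The start-site region of Grid1, chr14:34819092-34820904, was present in every list. Its pileup was 48 in WT, 57 in het and 44 in mutant, a ratio of 0.905 (0.587 to 1.39). It was broken into peaks differently in each list. WT had a tall peak with a small one of pileup 27 about 901 bp upstream of the start site, het had 1 peak, and mutant had 3, of which the upstream one had a pileup of 39 and the one inside the gene a pileup of 31. The upstream peak had a ratio of 1.43 (0.851 to 2.42). Summed over the region, the log2 ratio turned from -0.14 to 0.59. The promoter was therefore open in all genotypes, and its direction of difference depended on how the peaks were counted. At an internal start site in the coding sequence 630 kb into the gene, a faint mutant peak of pileup 8 stood without a WT or het peak.

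Regions were densest near the start of Grid1. Cut into 4 equal stretches of 191 kb, the gene held 32, 20, 8 and 12 regions from 5' to 3'. Introns 2 (123 kb) and 4 (225 kb) held 23 and 22 of them, and intron 8 (121 kb) held 6. The longest stretch without a region, 69.6 kb, began 539 kb from the start site. The 3' stretch had the lowest WT heights, with no WT pileup above 19, and 4 of its 12 regions were shared. The median log2 ratio of the shared regions was 0.19, -0.01, 0.11 and 0.37 in the same order, and 17 of 22, 6 of 12, 4 of 7 and 3 of 4 shared regions were higher in mutant, beside the 57.2% of all shared regions. Mir346, a miRNA gene inside intron 2, had no region on it, and the nearest lay 1.40 kb away.

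The tallest Grid1 regions lay deep in intron 4 rather than at the start site. Region chr14:35167027-35167985, 348 kb from the start site, had a pileup of 62 in WT, 86 in het and 63 in mutant, a ratio of 1.0 (0.695 to 1.45). Region chr14:35139394-35140471, at 320 kb, had 60, 99 and 47, a ratio of 0.774 (0.517 to 1.15). Region chr14:35074612-35075091, at 255 kb, had 55, 86 and 64, a ratio of 1.15 (0.789 to 1.68). The lowest rank among them in any list was 87.6 of 100, and none differed between WT and mutant beyond counting error. At the 201 bases around the summit, the region at 348 kb held 1 CATCTG and the region at 320 kb neither CAGCTG nor CATCTG.

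Height differences of 1.5-fold or more between the tallest peaks were found at 5 intronic regions of Grid1, and at 4 of them the WT and mutant peaks overlapped. Region chr14:35254350-35254848 in intron 5, the only region of that intron, had a pileup of 26 in WT, 27 in het and 13 in mutant. It was lower in mutant by a ratio of 0.494 (0.233 to 0.996), and its rank fell from 72.0 in WT to 28.7 in mutant, with 56.2 in het. The other 4 were higher in mutant. Region chr14:34877509-34877915 in intron 2 had 12 in WT, 23 in het and 29 in mutant, a ratio of 2.39 (1.18 to 5.13). Its ranks were 12.1, 40.9 and 76.6 in that order, and its summit held 1 CAGATG and 1 CAGCTG, 7 bp apart. Region chr14:35502469-35503742 in intron 12 was made of separate peaks. Its tallest peaks, of 14 in WT and 30 in mutant, gave a ratio of 2.12 (1.09 to 4.32) but lay 624 bp apart. The mutant peak of 30 was 138 bp wide, and neither a WT nor a het peak overlapped it. Where peaks of WT and mutant had summits 1 bp apart, the pileups were 13 and 12, a ratio of 0.912 (0.380 to 2.17). The region therefore showed an additional mutant peak and not a higher shared one. Neither this mutant summit nor that in intron 5 held the E-box forms.

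The remaining pair past 1.5-fold lay in intron 2, at 89.0 kb and 116 kb from the start site. Their pileups were 13 in WT, 15 in het and 22 in mutant for the former and 15, 25 and 23 for the latter, where WT had 2 peaks of 15, 1 of them with its summit 10 bp from that of mutant. The ratios of 1.67 (0.805 to 3.61) and 1.51 (0.757 to 3.12) both held 1 in their intervals. The next region below the threshold, at 81.3 kb in the same intron, had 18 in WT and 27 in mutant, a ratio of 1.48, and no het peak. On the lower side, the region at 284 kb followed with 32 in WT, 36 in het and 23 in mutant, a ratio of 0.710 (0.397 to 1.25).

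In 4 of these 5 regions the het rank lay between those of WT and mutant, beside 57.2% of the 9307 regions of the genome that were in all lists and past 1.5-fold. The exception was the region at 89.0 kb, where the het rank of 11.6 was below both, and in intron 12 the ranks belong to different peaks. With fold enrichment over the local background in place of pileup, or with heights centred on the median of all shared regions, 3 regions in place of 4 were higher by 1.5-fold or more. The count was also 3 of 65 shared regions, beside 7.44% of all, when only overlapping peaks were joined, and the count of lower regions then was 1, beside 3.67%. All 5 had low to moderate pileups, from 12 to 30 in WT and mutant, while the tall regions of intron 4 stayed within the threshold.

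**Figure D4:**
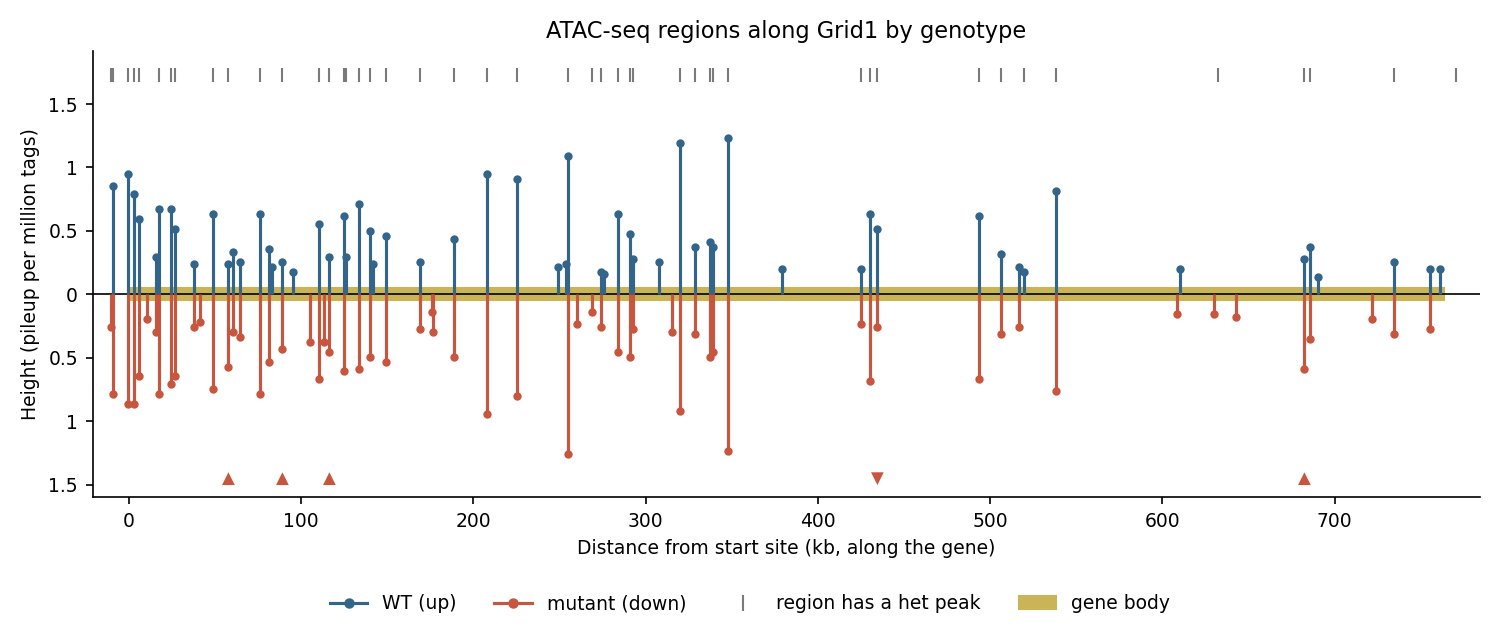
Heights of the 76 Grid1 regions (pileup per 1000000 tags, WT upward, mutant downward) against the distance of the summit from the start site (kb), with grey ticks for regions that have a het peak, a yellow bar for the gene body, and triangles under the 5 regions whose tallest peak was higher (upward) or lower (downward) in mutant by 1.5-fold or more. Regions thin out after 348 kb, and 3 of the triangles fall in the 5' part of the gene. The tallest regions stand between 255 and 348 kb, with ratios of mutant to WT from 0.774 to 1.15.

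Grid1 regions found in WT and not in mutant were faint. The tallest, chr14:34945938-34946235 over a coding exon, had a WT pileup of 15 and a het pileup of 19. It was followed by intronic regions with WT pileups of 13, 12 and 12, none with a het peak. The tallest mutant regions without a WT peak were both in intron 2, at 105 kb and 113 kb, with a pileup of 19 each and widths of 112 bp and 91 bp. They were followed by a pair with a pileup of 15, 135 bp and 145 bp wide, and none of these 4 had a het peak. These 4 ranked from 7.92 to 51.7 of 100 in the mutant list. The het list held 2 of the 13 regions that lacked a mutant peak and 2 of the 14 that lacked a WT peak.

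E-box forms and GC content were compared with all regions of the lists over the 201 bases at each summit. CAGCTG, which reads the same on both strands, was found in 18 of 95 regions (18.9%, 12.3 to 28.0) and in 23.3% of all regions. CATCTG, on either strand, was found in 30 (31.6%, 23.1 to 41.5) and in 28.1% of all. The general form CANNTG, which takes in both, was found in 73.7% and 76.6%, and TTGGC, a part of the NFI site, in 54.7% and 47.8%. For all these forms the interval of the 95 regions held the value over all regions. By gene, TTGGC was in 59.2% of the Grid1 regions (48.0 to 69.6) and in 0 of the 6 Cbln3 regions (0 to 39.0), and both intervals left out the 47.8% of all regions. CANNTG was in 2 of the 6 Cbln3 regions (33.3%, 9.68 to 70.0), which left out the 76.6% of all. Every form was looked at in each gene, with no allowance for the number of comparisons. Median GC content was 52.7% beside 50.7%. By class, CAGCTG was in 16 of the 62 shared regions (25.8%, 16.6 to 37.9), in 0 of the 15 without a mutant peak (0 to 20.4) and in 2 of the 16 without a WT peak, beside 25.4%, 19.4% and 21.1% over all regions of these classes. CATCTG was in 17 of the 62 (27.4%, 17.9 to 39.6), in 7 of the 15 (46.7%, 24.8 to 69.9) and in 5 of the 16, beside 29.6%, 28.2% and 24.8%. A match of letters is a description of the window and not a bound site.

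Other synapse genes, binding partners of cerebellins and a related ligand family with its receptor, were set beside the members. The list held the presynaptic neurexins Nrxn2 and Nrxn3, the Cbln4 receptors Dcc and Neo1, the related C1q ligands C1ql1, C1ql2, C1ql3 and C1ql4, and the C1ql receptor Adgrb3, with 300 regions in all. Of 235 WT regions, 44 (18.7%, 14.3 to 24.2) had no mutant peak, and of 247 mutant regions, 56 (22.7%, 17.9 to 28.3) had no WT peak. Among 191 shared regions, 12 were lower and 12 higher in mutant by 1.5-fold or more, and the median log2 ratio was -0.02 (-0.08 to 0.05). The median of 0.11 over the cerebellin and Grid1 regions had an interval that overlapped this one. The share without a mutant peak was highest at Adgrb3, with 15 of 44 (34.1%, 21.9 to 48.9), followed by Neo1, with 1 of 4. Adgrb3 was also high the other way, with 21 of 50 mutant regions (42%, 29.4 to 55.8) without a WT peak, beside 28.4% of all. Of its shared regions, 3 were lower and 3 higher in mutant by 1.5-fold or more. The share without a mutant peak was 0 at C1ql1 (0 of 6), C1ql3 (0 of 4) and C1ql4 (0 of 5), as at Cbln1 and Cbln3. Grid1 is nearly as long as Adgrb3 (763 kb and 762 kb), and its share of 21.7% had an interval that overlapped that of Adgrb3.

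**Figure D5:**
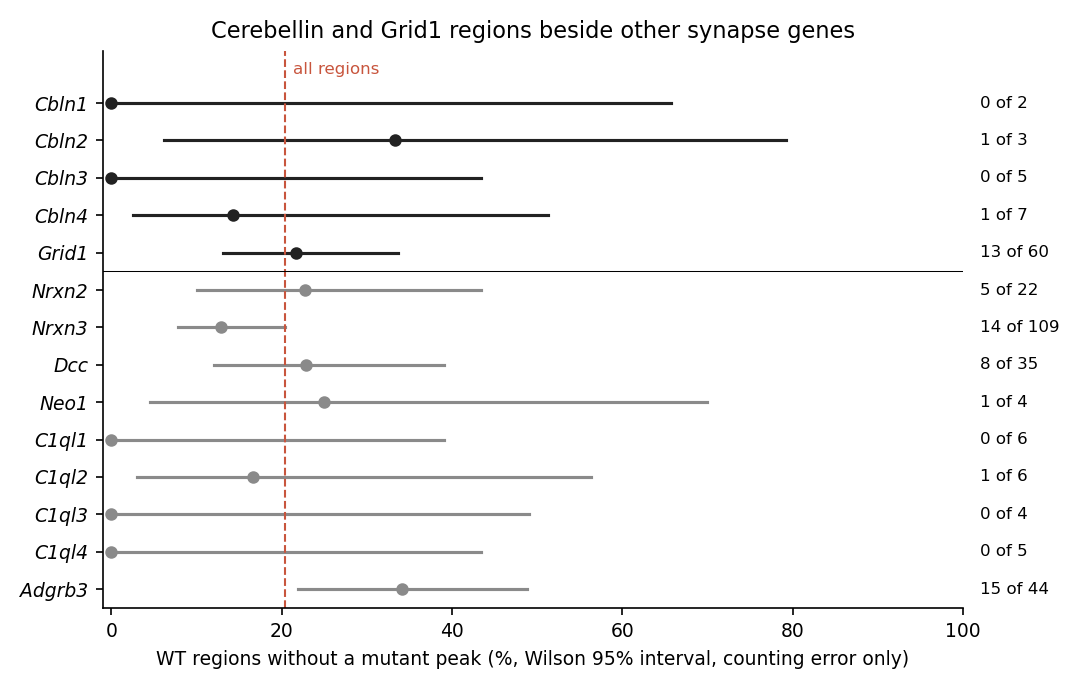
Share of WT regions without a mutant peak (%, with Wilson 95% intervals for counting error only) at the 5 genes (black) and at 9 other synapse genes (grey), with the counts at the right and the share over all regions, 20.4%, as a dashed line. The intervals of all 5 genes cross the line, and that of Adgrb3, from 21.9 to 48.9, lies above it, with no allowance for the number of genes. The share of mutant regions without a WT peak, not drawn, was also high at Adgrb3 (42%, beside 28.4% of all).

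The choice of window touched the cerebellins more than Grid1. Distances from the gene body to the nearer edge of a region were taken for the regions just inside and just outside the window of 20 kb. They were 2.99 kb and 22.3 kb for Cbln1, 18 kb and 20.8 kb for Cbln2, 15.4 kb and 21.2 kb for Cbln3, 10.4 kb and 29.7 kb for Cbln4, and 9.99 kb and 20.2 kb for Grid1. The tallest of the outside regions, at Cbln4, had pileups of 63 in WT, 86 in het and 62 in mutant, above every region within its window.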

How the data were processed

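ATAC-seq peaks of granule neuron progenitors from 3 WT, 2 het and 3 mutant libraries were analysed as 3 lists, grouped by the genotype in the labels. The lists and genes were chosen with earlier results of these data known. Per the submitters' processing notes, reads were trimmed (Trim Galore 0.4.1), aligned to mm10 (STAR 2.5.0b and Bowtie 1.0.0 are both named), freed of duplicates (Picard 1.139) and peaks called with MACS2 2.1.0.20150731. Per the file headers, the authors pooled the libraries of a genotype before calling, and the WT and mutant lists come from STAR alignments with unshifted tags extended to 90 and 88 bp (tag lengths 107 and 76), whereas the het list comes from Bowtie alignments with tags shifted by -100 and extended to 200 bp. The methods of the study describe Bowtie and the shift for all. Longer extension raises pileups, so het heights were not compared with the others. Peaks past a q-value of 0.05 were kept.

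The deposited pileup signal is the number of extended tags at the summit, not scaled to depth. The deposited fold enrichment is the ratio of pileup to the local background set by MACS2, and the deposited −log10 q-values, calculated by MACS2, gave the ranks within a list. No per-sample column was left without a group (0 columns).

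Peaks with fewer than 300 bp between them were joined across lists, and a region's height was its tallest pileup per 1000000 tags of the list. Genes and start sites came from GENCODE for GRCm38, and no peak passed the end of any of 21 chromosomes of that assembly. Intervals are Wilson intervals for shares, exact binomial intervals for ratios and order-statistic intervals for medians, all at 95% and for counting error only. PCR copies are not independent molecules. A fold of 1.5 marked a height difference. Named were, for each gene, regions with a summit within 1 kb of a start site, the tallest regions, the tallest without a WT or a mutant peak, and the shared regions with the lowest and highest ratios among those with a pileup of 20 or more; of the other synapse genes, those with the highest and the lowest share of WT regions without a mutant peak. The region just under the fold of 1.5, regions past it beyond that rule, and the widths and 250 bp windows were added after values were seen. Another gene of the chosen synapse list is not reported here. Joining was tested on simulated peaks. Python 3.11.15, numpy 2.4.6, pandas 2.3.3 and scipy 1.17.1 were used. Alternatives changed the joining, the q-value threshold, the list lengths, the window, the scaling and the measure of height.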

Additional observations from a re-analysis of the deposited data

How the results depend on the processing

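No paired analysis was possible because each genotype has 1 list of peaks made from its pooled libraries, which also means that no library could be left out. Of 22 alternatives for the values over all 5 genes, 21 stayed within the counting interval of the value given or within 1.5 times the count. These include 2 chosen after seeing the data, in which only overlapping peaks were joined before regions past 1.5-fold were counted. With peaks at −log10 q of 5 or more in each list, the share of WT regions without a mutant peak moved from 19.5% (15 of 77) to 4.26% (2 of 47), and over all regions from 20.4% to 12.8%. This threshold removes weak peaks by its construction. The share of mutant regions without a WT peak did not fall with it, at 21.1% (12 of 57) after 20.5% (16 of 78), beside 23.2% of all regions. At Grid1 alone, the share of WT regions without a mutant peak moved with the same threshold from 21.7% (13 of 60) to 5.71% (2 of 35). With lists of equal length it was 12.2% (5 of 41), where all regions had 18.3%. The share of Grid1 mutant regions without a WT peak was 23.3% (10 of 43) with the threshold, after 23.0% (14 of 61). For single genes and their start-site regions, 15 of 128 alternatives moved the value and 113 did not. With lists of equal length, the regions without a mutant peak were 7 of 55 (12.7%) and those without a WT peak 8 of 56 (14.3%), beside 18.3% and 17.9% of all regions. Centring the heights shifted the median of all shared regions by 0.07 on the log2 scale and the median over the 5 genes from 0.11 to 0.04, and 37 of the 62 shared regions then stood higher in mutant in place of 41. Depth limits single regions: at pileups of 12 and 29 the ratio of 2.39 had an interval from 1.18 to 5.13. The number of reads behind each library of a pool is not known here.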
